A study of Danio rerio with 4 samples.

Results

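Aminoacyl-tRNA synthetases were followed in RNA from zebrafish embryonic hearts with and without overexpression of Bmp2b. The genes were chosen by symbol alone: the letter of an amino acid followed by ars, with or without a closing 1, 2 or b, together with farsa and farsb. This gave 31 of the 15528 named genes on the array, carried by 52 of its 43603 probes. By name, 17 encode enzymes of the cytosol and 14, whose symbols end in 2, encode enzymes of the mitochondrion. Synthetases for aspartate and for glutamate, and the cytosolic forms for arginine and proline, are not among them and were not analysed here.

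A synthetase joins one amino acid to the transfer RNAs that carry its anticodon, so that ribosomes can use it. Vertebrate cells make most of these enzymes in separate cytosolic and mitochondrial versions from separate nuclear genes, because mitochondria translate their own few messages. Several cytosolic synthetases sit together in a complex held by scaffold proteins, and in mammals many cytosolic synthetase genes are induced by the transcription factor Atf4 when amino acids run short. In human, the genes for glycine and lysine each serve both compartments, so gars1 and kars1 are counted as cytosolic here by symbol only.

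Bmp2b hearts came from embryos of the line Tg(hsp70l:bmp2b)fr13, in which a heat-shock promoter drives bmp2b throughout the embryo (2 arrays, called Bmp2b), and were compared with wild-type hearts (2 arrays, called WT). All embryos, WT included, were heat-shocked for 30 min at 37 °C from 18 hours post fertilization (hpf). Whole hearts were then dissected by hand between 21 and 23 hpf and pooled. Each pool was measured on a single-colour Agilent array; the labels do not say whether the pools of a group came from separate clutches, so p-values measure only the spread between these arrays.

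Transcripts of bmp2b stood at 13.74 and 14.03 on the Bmp2b arrays, against 7.86 and 8.09 on the WT arrays, on the normalized log2 scale used throughout. Bmp2b arrays were dimmer, with 34.1% and 46.2% of probes above background against 57.4% and 57.1% on the WT arrays. Over 23 bright probes with 5 spots each, the 2 WT arrays lay 0.0737 log2 units apart (root mean square), less than the 0.122 that the spread between spots gives, so the counts of calls below are also given with WT counted as 1 sample. The same measure was 0.721 between the Bmp2b arrays, against 0.120 from their spots. Both Bmp2b arrays were on slide 3, and WT used slides 1 and 2, so slide cannot be told apart from genotype. Markers of the cell types differed between the groups and between the Bmp2b arrays. All 9 heart muscle markers were measured, with a median log2 fold change of -0.62. Of them 1 rose, 2 fell, and 6 were lower on both Bmp2b arrays than on either WT array. Over all genes tested, 9.00% rose, 8.22% fell and 33.8% were lower on both Bmp2b arrays than on either WT array. One of the 6, nkx2.5, at -0.25, had another probe at 0.43, while other probes of cmlc1, myl7, tnnc1a and tnnt2a were negative. Both endothelial markers, cdh5 and kdrl, were lower on both Bmp2b arrays (-0.96 and -0.55, not passed), and of 4 blood markers measured tal1 fell. A second cdh5 probe was at 0.06 and a second kdrl probe at -0.49, neither passing. Mean levels of the 9 neural markers were 8.12 and 10.33 on Bmp2b arrays 1 and 2, against 9.35 and 9.37 on the WT arrays, and all 9 were higher on Bmp2b array 2 than on Bmp2b array 1. Epidermal markers, 8 of 9 measured, had mean levels of 10.70 and 12.37 on Bmp2b arrays 1 and 2, against 10.60 and 10.63 on the WT arrays. Of them krt18a.1 and krt8 rose, and both were higher on Bmp2b array 1 than on Bmp2b array 2. The other 6 were higher on Bmp2b array 2. On Bmp2b array 1, krt4, krt5 and epcam were lower than on either WT array. With WT as 1 sample 0 of these marker calls held (limma), and myh6 alone under a trend and robust prior. The part of these cells in the synthetase values was not tested. Since whole hearts were measured, fewer cells of a type and less RNA per cell cannot be told apart.

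Few synthetase genes changed. The cytosolic isoleucine gene iars1 and the glycine gene gars1 rose in Bmp2b hearts, the mitochondrial isoleucine gene iars2 fell, and the other 28 of 31 did not pass (limma, Benjamini-Hochberg adjusted p under 0.05 over all probes tested). Over all 11376 genes tested, 9.00% rose and 8.22% fell, so 2 and 1 of 31, or 6.45% and 3.23%, are not above the background. The median log2 fold change of the 31 genes was 0.04, against 0.01 over all genes tested. At an unadjusted p under 0.05 there were 10 synthetase genes, where 38.4% of all genes reached it.

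**Figure D1:**
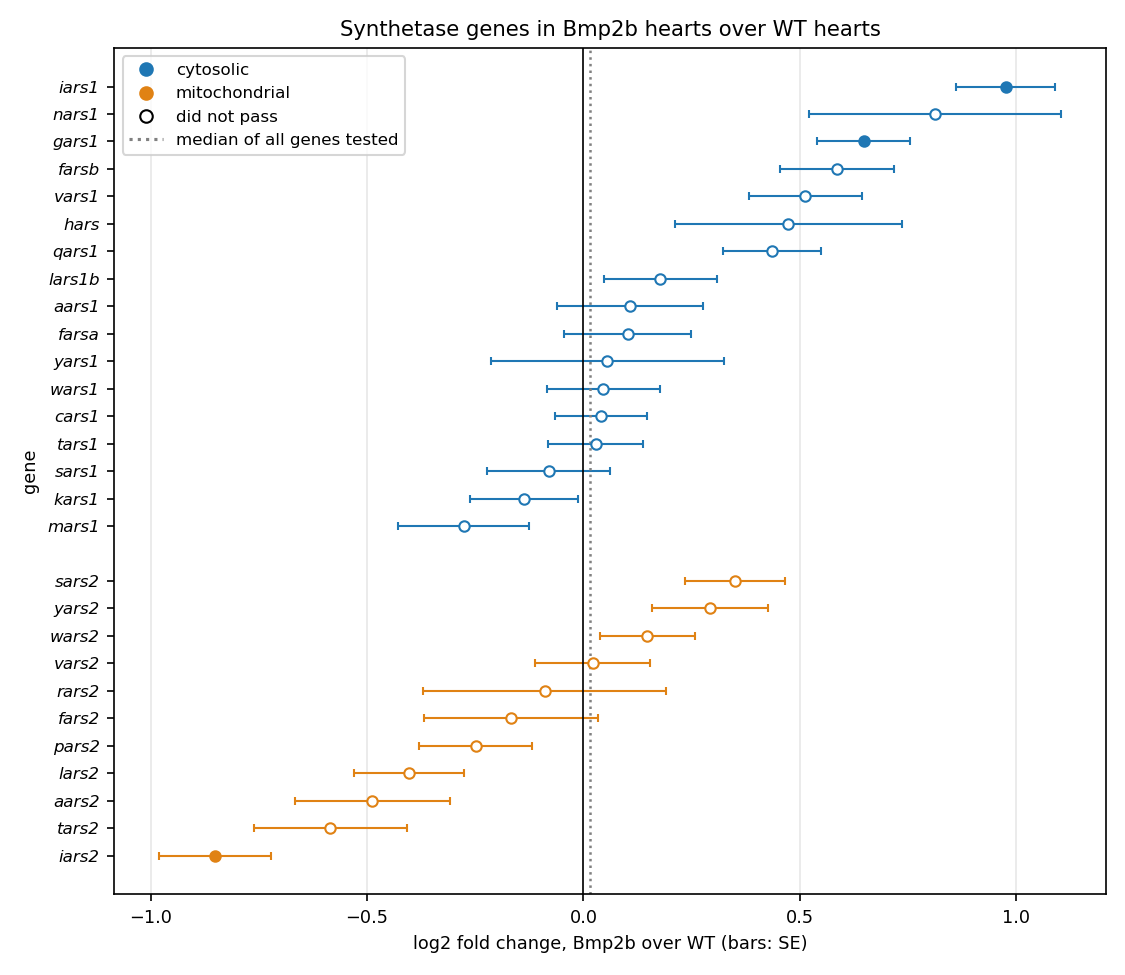
Log2 fold change in Bmp2b over WT hearts for each synthetase gene, with its standard error. Filled points passed the threshold: iars1 and gars1 lie at 0.98 and 0.65 and iars2 at -0.85, while the dotted line marks the median of all genes tested, 0.01. The 3 genes below background on both Bmp2b arrays, cars2, mars2 and nars2, are left out.

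The gene with the largest rise was iars1, for the enzyme that loads isoleucine and a member of the multi-synthetase complex. It measured 12.77 and 12.88 on the Bmp2b arrays, against 11.82 and 11.88 on the WT arrays. The Bmp2b arrays lay close together and well clear of both WT arrays. The difference was 1.97-fold (log2 fold change 0.98 ± 0.12, SE; limma adjusted p = 0.0234). Raw intensities were 2385 and 6975 on the Bmp2b arrays, against 6363 and 6537 on the WT arrays, so the order of the groups appears only after the arrays' overall brightness is matched. Of all genes tested, 6.10% had a larger positive fold change.

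The glycine gene gars1 followed at 13.63 and 13.65 on the Bmp2b arrays, against 12.98 and 13.01 on the WT arrays. The 2 Bmp2b arrays were nearly equal and did not overlap with WT. This was a 1.57-fold difference (log2 fold change 0.65 ± 0.11 SE, limma adjusted p = 0.0357), and 14.0% of all genes had a larger one. Raw intensities ran the other way, at 4505.5 and 11934 on the Bmp2b arrays against 14384.5 and 14406.5 on the WT arrays. The rise of gars1 thus appears only after the arrays' overall brightness is matched.

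The gene that fell was iars2, for the mitochondrial isoleucine enzyme. It stood at 7.16 and 7.37 on the Bmp2b arrays, against 8.12 and 8.11 on the WT arrays. Both Bmp2b arrays were lower than both WT arrays, and on Bmp2b array 1 the probe did not exceed background. Its log2 fold change was -0.85 ± 0.13 (SE, limma adjusted p = 0.0315). Raw intensities were 50 and 121 on the Bmp2b arrays, against 413.5 and 390.5 on the WT arrays. The background cut of Bmp2b array 1 was 50. The raw 75th percentile of all spots was also lower, at 93.5 and 250 on the Bmp2b arrays against 445 and 424 on the WT arrays.

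These 3 calls rest on the WT arrays as separate samples, and on 1 probe each. With WT as 1 sample, 0 synthetase genes passed (limma; 2 at an unadjusted p under 0.05), with adjusted p = 0.355 for iars1, 0.474 for gars1 and 0.401 for iars2, and with a trend and robust variance prior 0 passed again (1 unadjusted), where 0.853% of all genes did. Without WT array 1, 0 genes passed (2 unadjusted), and likewise 0 without WT array 2 (2 unadjusted). Without Bmp2b array 1, 13 rose and 7 fell, and without Bmp2b array 2, 9 rose and 10 fell, where the spread is that of the WT arrays alone. In these fits 35.9% of all genes rose and 29.6% fell without Bmp2b array 1, and 34.2% rose and 35.7% fell without Bmp2b array 2. When slide entered as a random block (correlation set to 0.5), 0 passed (4 unadjusted), with an adjusted p of 0.110 for iars1. In that fit 0 of all 11376 genes passed (limma; 2594 at an unadjusted p under 0.05). Calls were likewise lost over the whole array without either WT array, and with WT as 1 sample without the trend and robust prior. The loss in these fits is thus not particular to the synthetases or to other genes named here. Scaling to the 75th percentile also ended all 3 calls (3 unadjusted); the log2 fold changes were then 0.68 for iars1, 0.37 for gars1 and -0.65 for iars2. With the authors' processed intensities iars1 and gars1 lost their calls under quantile and 75th percentile scaling, and iars2 under 75th percentile scaling. All 3 kept their direction in each alternative that measured them. Only other scaling, other background correction, processed intensities or leaving out an array could move these fold changes.

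Among the 17 cytosolic genes, 2 rose, 0 fell (limma, 0 at an unadjusted p under 0.05) and 15 did not pass. The 2 make 11.8%, where 9.98% rose and 8.78% fell among all genes in the level range of these members. The median log2 fold change of the 17 genes was 0.11, and 14 of 17 were positive, where 5805 of all 11376 genes were. The fold change of the asparagine gene nars1 was, in log2, 0.81 ± 0.29 (SE; adjusted p = 0.134), with levels of 13.11 and 12.34 on the Bmp2b arrays against 11.87 and 11.96 on the WT arrays. Its arrays did not overlap, but Bmp2b array 1 exceeded Bmp2b array 2 by more than any other synthetase gene. The beta subunit gene of the phenylalanine enzyme, farsb, had 0.58 ± 0.13 (adjusted p = 0.0582), with 11.89 and 12.06 on the Bmp2b arrays against 11.46 and 11.32 on the WT arrays. The gene for its partner, the alpha subunit farsa, had 0.10 ± 0.15 (adjusted p = 0.650) and overlapped between groups. The valine gene vars1 had 0.51 ± 0.13 (adjusted p = 0.0727) and the glutamine gene qars1 0.43 ± 0.11 (adjusted p = 0.0752), neither overlapping between groups. Dimmer probes of nars1, farsb and vars1 went the other way, at -0.44, -0.23 and -0.36 (not passed), while those of qars1 did not. The histidine gene hars had levels of 11.13 and 11.81 on the Bmp2b arrays, against 10.98 and 11.01 on the WT arrays (adjusted p = 0.269).

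The other cytosolic genes lay closer to 0. Log2 fold changes were 0.18 for the leucine gene lars1b, 0.11 for the alanine gene aars1, 0.06 for the tyrosine gene yars1, 0.05 for the tryptophan gene wars1, 0.04 for the cysteine gene cars1 and 0.03 for the threonine gene tars1. Negative values were -0.28 for the methionine gene mars1, -0.14 for the lysine gene kars1 and -0.08 for sars1, the serine gene whose loss disturbs vessel growth in zebrafish. Adjusted p ranged from 0.262 for mars1 to 0.900 for yars1 over these 9 genes. Of the complex members, iars1, qars1 and lars1b were positive, and mars1 and kars1 negative, with a median of 0.18 over the 5; the 12 other cytosolic genes had a median of 0.10.

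**Figure D2:**
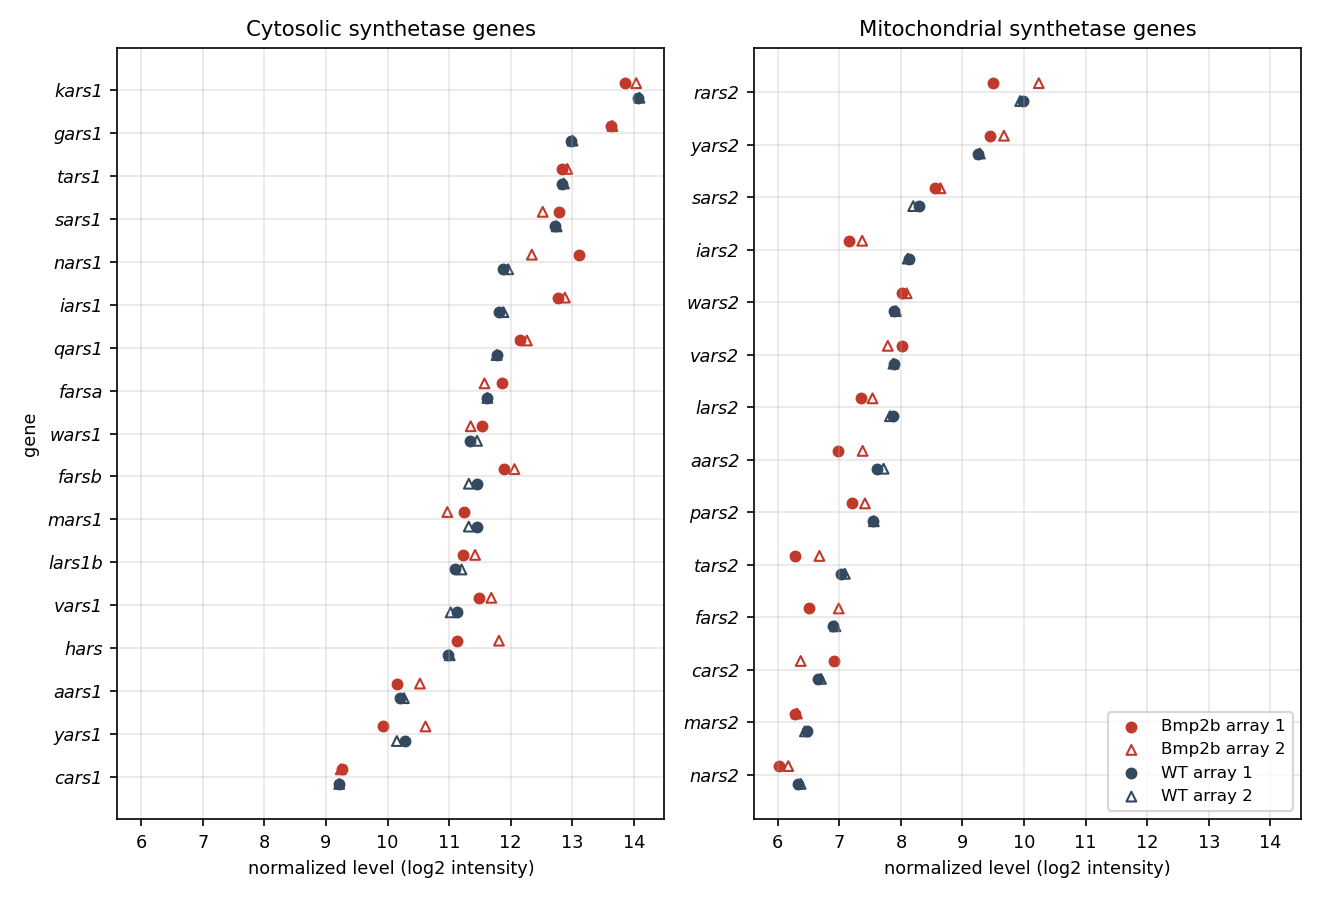
Normalized log2 level of each synthetase gene on the 2 Bmp2b arrays (red) and the 2 WT arrays (dark), ordered within each panel by the WT mean. The WT arrays differ by at most 0.14 for any gene, while nars1, hars, yars1 and rars2 lie 0.68 to 0.77 apart between the Bmp2b arrays; levels of different genes come from different probes and are not comparable.

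Among the 14 mitochondrial genes, 0 rose (limma, 1 at an unadjusted p under 0.05, sars2), 1 fell and 13 did not pass. The 1 makes 7.14%, where 9.57% rose and 8.63% fell among all genes in the level range of these members. Leaving out 3 genes below background on both Bmp2b arrays, cars2, mars2 and nars2, the median log2 fold change was -0.17. Of the other 11 genes, 7 were negative, where 5571 of all 11376 genes were. Against the WT mean, the median of the 11 was -0.41 on Bmp2b array 1 and -0.09 on Bmp2b array 2. Of the 11, 10 were higher on Bmp2b array 2 than on Bmp2b array 1, where 5769 of all 11376 genes were. The threonine gene tars2 had -0.58 ± 0.18 (SE; adjusted p = 0.0990), with 6.28 and 6.68 on the Bmp2b arrays against 7.03 and 7.09 on the WT arrays. The alanine gene aars2 had -0.49 ± 0.18 (adjusted p = 0.140) and the leucine gene lars2 -0.40 ± 0.13 (adjusted p = 0.105). The signals of tars2 and aars2 on Bmp2b array 1 did not exceed background, while lars2 was above it throughout and lower on both Bmp2b arrays than on either WT array. On the positive side stood the serine gene sars2 at 0.35 ± 0.12 (adjusted p = 0.116), with 8.55 and 8.64 on the Bmp2b arrays against 8.30 and 8.20 on the WT arrays, the tyrosine gene yars2 at 0.29 and the tryptophan gene wars2 at 0.15. The valine gene vars2 was at 0.02, the arginine gene rars2 at -0.09, the phenylalanine gene fars2, not above background on Bmp2b array 1, at -0.17 and the proline gene pars2 at -0.25. In rars2 the Bmp2b arrays, at 9.50 and 10.24, lay on either side of the WT arrays at 9.98 and 9.94.

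Many mitochondrial probes were dim in Bmp2b hearts. All 31 synthetase genes were above background on both WT arrays, but 24 were on Bmp2b array 1 and 28 on Bmp2b array 2. The genes cars2, mars2 and nars2, for cysteine, methionine and asparagine, were tested only because of their WT signal, since neither Bmp2b array exceeded background. Their WT means of 6.68, 6.46 and 6.35 lay below the lowest level that counted as measured on the Bmp2b arrays, 6.78 on average, so their fold changes are not described. None of the 3 passed as analysed here, but mars2 was the 1 gene called lower with processed intensities under 75th percentile scaling. On Bmp2b array 1, iars2, aars2, tars2 and fars2 did not exceed background either.

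Over the 31 genes, 12 were higher on both Bmp2b arrays than on either WT array, and 9 were lower. These are 38.7% and 29.0%, where 34.9% and 33.8% of all genes tested were placed likewise. By compartment, 9 cytosolic genes were higher and 2 lower, against 3 higher and 5 lower among the 11 mitochondrial genes above background on a Bmp2b array; the other 2 of the 9 lower genes are mars2 and nars2. The cytosolic counts are 52.9% and 11.8%, and those of the 11 mitochondrial genes 27.3% and 45.5%. Among all genes in the level range of the cytosolic members, 37.4% were higher and 33.8% lower, and 36.9% and 31.1% in the mitochondrial range. The median of all genes whose level fell in the range of the cytosolic members was 0.02 (4690 genes), and 0.06 in the range of the mitochondrial members (6489 genes).

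For 12 amino acids both forms were on the array, in 13 pairs, since phenylalanine has 2 cytosolic subunits. In 10 pairs the mitochondrial form was above background on at least 1 Bmp2b array, and among these the cytosolic form had the larger log2 fold change in 7 and the mitochondrial form in 3, with a median difference of 0.54. Over all 13 the counts were 9 and 4. The widest gap was in isoleucine, at 1.83 between iars1 and iars2, though iars2 did not exceed background on Bmp2b array 1. The forms of 5 pairs were above background on all 4 arrays, and of these 2 were larger in the cytosolic form and 3 in the mitochondrial form. The gap was 0.58 between lars1b and lars2 and 0.49 between vars1 and vars2, and it was -0.10 in the tryptophan pair, -0.24 in the tyrosine pair and -0.43 in the serine pair. Of the 10 pairs, the difference was larger on both Bmp2b arrays than on either WT array in 6, and smaller in 1. Of single genes, 34.9% were higher and 33.8% lower by this measure, and no share was computed for pairs of other genes. Among the 6 are pairs with aars2, iars2, tars2 and fars2, which did not exceed background on Bmp2b array 1. With 2 arrays against 2, an exact permutation test of a single pair cannot go below a two-sided p of 0.333.

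**Figure D3:**
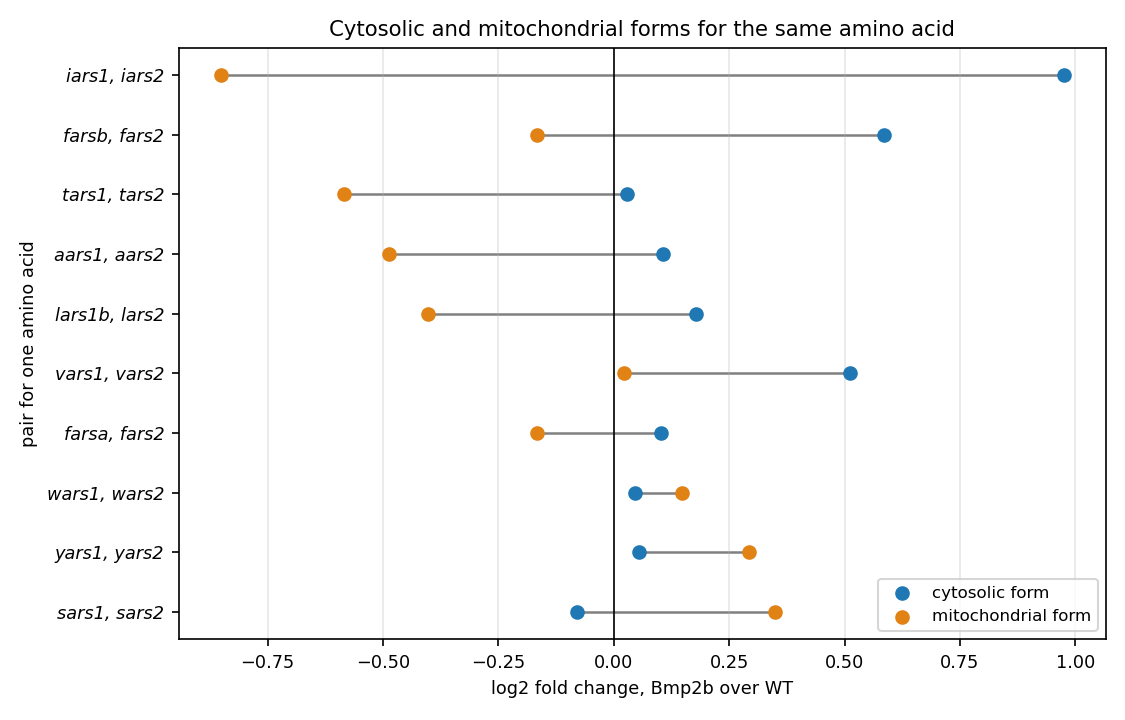
Log2 fold change in Bmp2b over WT hearts of the cytosolic and mitochondrial form for each amino acid with both above background on a Bmp2b array, joined by a line. Isoleucine has the widest gap, 1.83, and serine, tyrosine and tryptophan have the mitochondrial form to the right; iars2, fars2, tars2 and aars2 were not above background on Bmp2b array 1.

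The lean of the compartments depended on how the arrays were scaled and on which probes were read. When arrays were instead scaled to their 75th percentile, the cytosolic median was -0.14 and that of the 11 mitochondrial genes 0.08. Of the 10 pairs, 4 were then larger in the cytosolic form and 6 in the mitochondrial form, and the median of all genes moved to 0.14. With the authors' processed intensities scaled in the same way the medians were 0.17 and -0.14, with 8 pairs larger in the cytosolic form and 2 in the mitochondrial form. When all tested probes of a gene were averaged, the counts were also 8 and 2, but the median gap of the 10 pairs was 0.19 rather than 0.54. Over the 5 pairs above background on all 4 arrays the median gap was -0.10. The isoleucine pair kept its direction in each alternative that measured it, with a gap between 1.34 and 2.07. Several alternatives, such as WT as 1 sample and the variance prior, leave this gap at 1.83 by construction.

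**Figure D4:**
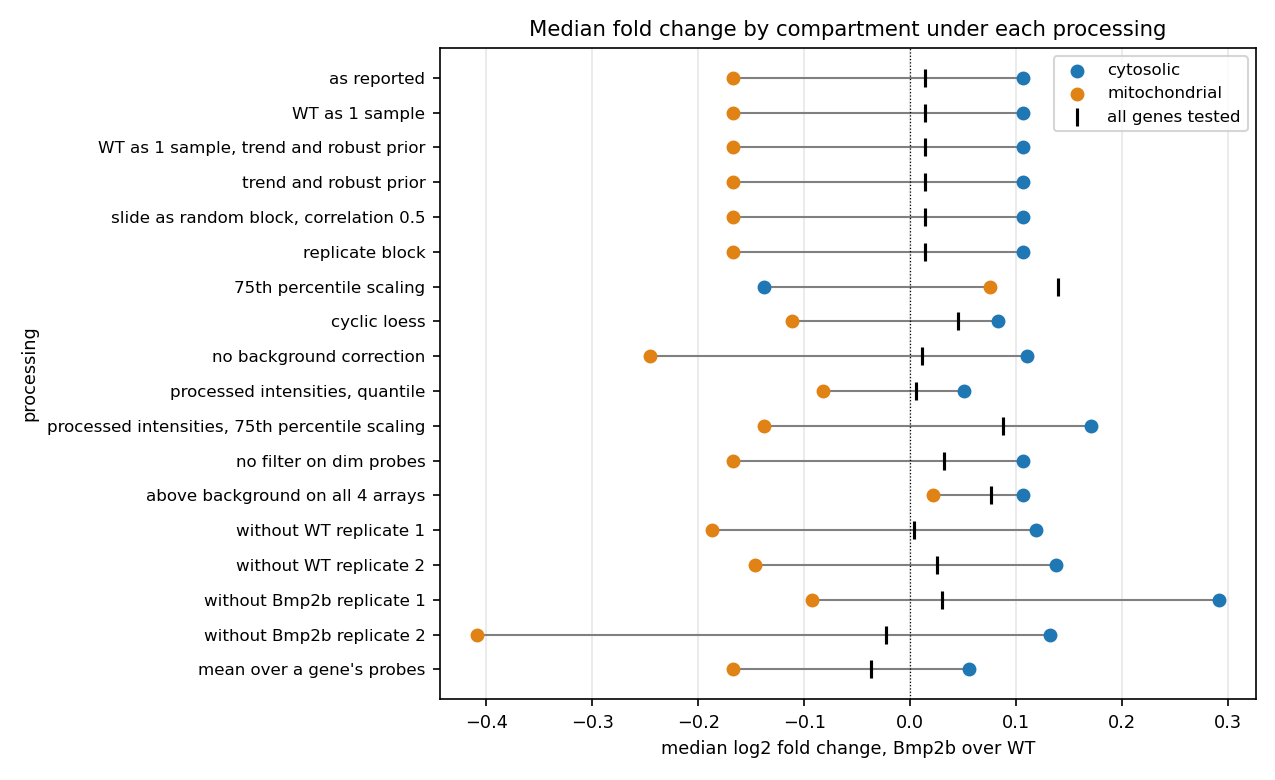
Median log2 fold change of the 17 cytosolic genes, the 11 mitochondrial genes above background on a Bmp2b array, and all genes tested under each way of processing the arrays. With probes above background on all 4 arrays only 24 synthetase genes were tested, so the mitochondrial point there, at 0.02, covers fewer than 11. The order of the compartments turns only with scaling of raw intensities to the 75th percentile, where the medians were -0.14 and 0.08.

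Probes of the same synthetase gene often disagreed. Of 50 probes tested, 4 were higher and 5 lower, or 8.0% and 10.0%, where 6.82% and 9.03% of all probes passed. With WT as 1 sample 0 of the 50 passed (limma; 2 at an unadjusted p under 0.05, with and without the trend and robust prior), and 1 rose and 1 fell with the replicate number as a block. Of the 14 genes with more than 1 tested probe, 11 had probes of both signs. In 6 genes a probe other than the brightest passed while the brightest did not. For tars1 the brightest probe had a log2 fold change of 0.03, while a second fell by 0.68 (adjusted p = 0.0367), with 10.44 and 10.56 on the Bmp2b arrays against 11.19 and 11.17 on the WT arrays. For hars a dimmer probe fell by 0.76 (adjusted p = 0.0355), and for aars1 and kars1 dimmer probes fell by 0.75 and 0.67. In the opposite direction, a second sars1 probe was higher by 0.79 (adjusted p = 0.0344), with 11.12 and 11.31 on the Bmp2b arrays against 10.38 and 10.45 on the WT arrays, and a second rars2 probe by 0.72 (adjusted p = 0.0490). For kars1, other dimmer probes were at 0.64 and -0.31 and did not pass. The 3 probes of qars1 were alike, at 0.43, 0.37 and 0.34, as were the 2 of farsa, at 0.10 and 0.08. When all tested probes of a gene were averaged, iars1, gars1 and iars2 were the only synthetase genes called, where 9.56% of all genes rose and 11.1% fell. Each of them has 1 tested probe, so averaging left their values unchanged and does not check these calls. One further probe each of rars2 and yars1 was above background on 0 arrays and was not tested.

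**Figure D5:**
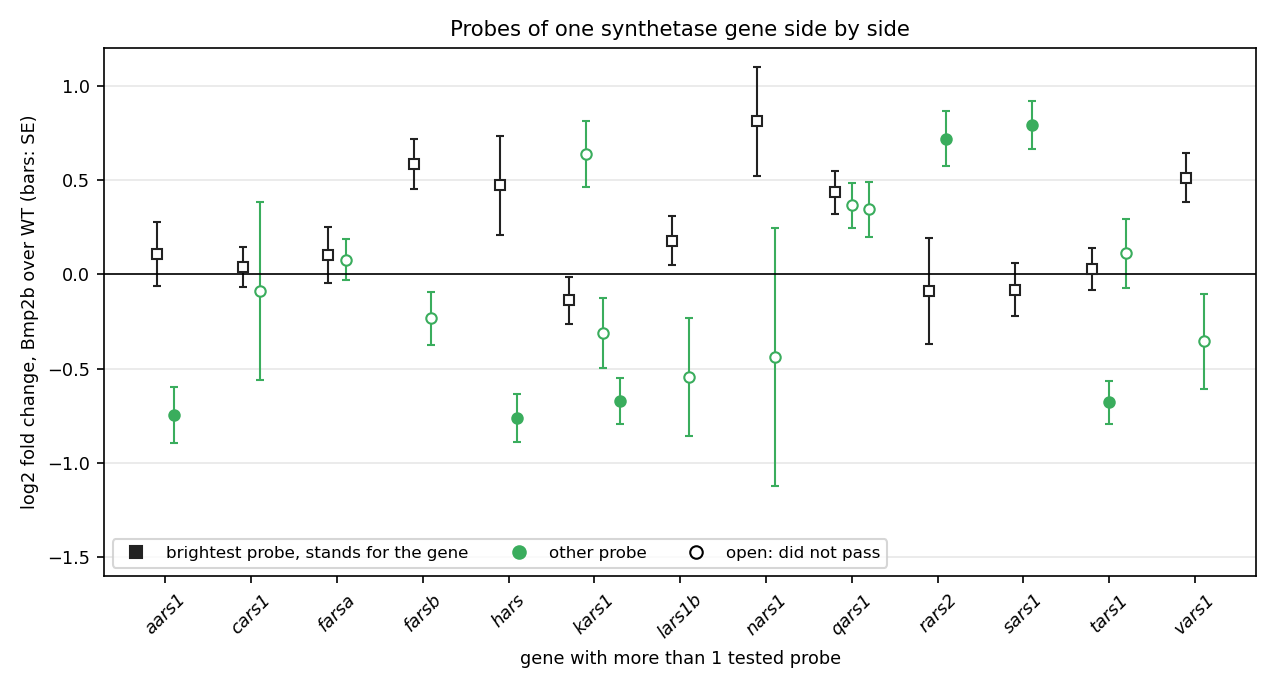
Log2 fold change in Bmp2b over WT hearts, with its standard error, of each probe above background on a Bmp2b array, for the 13 synthetase genes with more than 1, ordered from brightest to dimmest within a gene. Filled points passed the threshold; they lie on dimmer probes of aars1, hars, kars1, rars2, sars1 and tars1.

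Partners of the synthetases moved in both directions. Scaffolds, relatives and other enzymes of tRNA charging contributed 10 measured genes, of which 2 rose and 2 fell, where 9.00% and 8.22% of all genes did, with a median of 0.11. The scaffold gene aimp2 of the multi-synthetase complex rose by 0.57 ± 0.11 (SE; limma adjusted p = 0.0471), while the scaffold genes aimp1a and aimp1b had -0.31 and 0.32 and did not pass. Mitochondria make their glutamine tRNA by converting a glutamate already attached, through an enzyme of 3 subunits. Of its genes, gatb rose by 0.70 and qrsl1 fell by 0.61, gatc did not pass, and neither did another gatb probe, at -0.39. The other gene that fell, by 0.71, was sepsecs, for the last step of selenocysteine tRNA synthesis. With WT as 1 sample 0 of the 4 calls held (limma, with and without the trend and robust prior). The same was so with the replicate number as a block, with 75th percentile scaling and without either WT array. The list's median was 0.15 without Bmp2b array 1 and 0.10 without Bmp2b array 2.

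The Atf4 axis and the amino acid response held genes of both directions. Of its 29 genes above background, 9 rose, 5 fell and 15 did not pass the threshold, with a median of 0.21. The called genes make 31.0% higher and 17.2% lower, where 9.00% and 8.22% of all genes were. This list was chosen with earlier results of these data known, so the shares are not a test. Among those that rose were sesn2, an inhibitor of the growth kinase complex mTORC1, by 3.55, cbsb, for a step of cysteine synthesis, by 2.42, stc2a, for a secreted stanniocalcin, by 1.93, and ddit4, another mTORC1 inhibitor, by 1.71. Another sesn2 probe, at 0.49, did not pass. The following were picked outside the naming rule: phgdh and psat1, for serine synthesis, rose by 0.75 and 0.84, and chac1, which degrades glutathione, fell by 1.32. The others of the list that fell were cth, eif2ak3, pycr1b and eif2s1a, by 0.93, 0.86, 1.17 and 0.97. Other probes of cth and eif2ak3, at -1.07 and -0.22, did not pass. Transcripts of atf4a itself did not pass (log2 fold change 0.21, adjusted p = 0.239), at 15.58 and 15.60 on the Bmp2b arrays against 15.34 and 15.41 on the WT arrays, nor did those of atf4b. With WT as 1 sample only sesn2 and cbsb held under the trend and robust prior, and 0 without it. No call held without WT array 1 or without WT array 2. The list's median was 0.22 without Bmp2b array 1 and 0.23 without Bmp2b array 2. Scaling to the 75th percentile left 5 higher and 1 lower, where 298 and 181 of all 11376 genes were higher and lower.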

How the data were processed

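The authors deposited linear spot intensities: raw median intensity per spot, per the file headers, and a processed intensity, which the value table repeats. How the processed values were made is not given in the sources used here. Per the submitters' processing notes, Agilent Feature Extraction was used. Raw intensities of 43803 spots were corrected by normexp (offset 50), log2-transformed and quantile-normalized, and spots of a probe averaged. Background was 2 times an array's 5th percentile; 24454 probes above it on at least 2 arrays were fitted with limma 3.58.1 in R 4.3.3 (lmFit, eBayes, two-sided; Benjamini-Hochberg over all probes, threshold 0.05). A gene was read from its brightest tested probe, by the platform's symbols, which can be old. Every synthetase gene is accounted for; of other lists, up to 4 genes with the smallest p among those called are named, unless said otherwise. Members and lists were chosen with earlier results of these data known. Fits were tested on simulated data with the same independent noise on all 4 arrays. The arrays here differ in spread between the groups, so that test does not show how the fits behave on them. Alternatives covered WT as 1 sample, variance prior, slide, replicate block, scaling, background correction, processed intensities, filter, probe averaging and leaving out each array. No saturation flag and no sequence was used here.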

Additional observations from a re-analysis of the deposited data

How the results depend on the processing

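Over 17 alternatives, iars1, gars1 and iars2 kept their direction wherever measured. Variance prior, slide, replicate block, filter, probe averaging and WT as 1 sample could not change these 3 fold changes, each from 1 probe. Of the 28 other synthetase genes, 18 turned sign in at least 1 alternative. The count of genes higher, 2 as reported, was 0 with WT as 1 sample (with and without the trend and robust prior), with slide as a random block, with 75th percentile scaling and with processed intensities under either scaling. It was 1 without background correction and 1 with the replicate block, where gars1 lost its call (adjusted p = 0.0774). The count lower, 1 as reported, was 0 with WT as 1 sample (both priors), slide as a block, 75th percentile scaling, and the filter of all 4 arrays above background, where iars2 was not tested; with processed intensities under 75th percentile scaling it was 1, but of mars2 in place of iars2. The same-numbered arrays share only a number: their deviations from the group means correlated at r = 0.09, and the replicate block changed no other call of a synthetase gene. Beyond them it changed many calls of the lists and markers. Among others it ended the 4 calls of partners and those of phgdh, gfm1, rpl28, eef1db, rps7 and myh7. It newly called asns, eif4h, rpl17, rps12, tnnc1a and cdh5, among others. The cytosolic median of 0.11 was -0.14 with 75th percentile scaling. The median of all 14 mitochondrial genes, -0.17, was 0.11 with 75th percentile scaling. It was -0.50 and -0.55 with processed intensities under quantile and 75th percentile scaling. These medians include cars2, mars2 and nars2, below background on both Bmp2b arrays. Over the 11 other genes the median was -0.17 as reported and 0.08 with 75th percentile scaling. With processed intensities it was only -0.08 and -0.14 under quantile and 75th percentile scaling. When each probe had to be above background on all 4 arrays, the median of the 7 mitochondrial genes left was 0.021. Over the 11 genes the median was -0.09 without Bmp2b array 1 and -0.41 without Bmp2b array 2. The mitochondrial medians that follow are again of all 14 genes. Leaving out each array in turn gave 0 to 13 genes higher, 0 to 10 lower, cytosolic medians of 0.12 to 0.29 and mitochondrial medians of -0.35 to -0.14; rars2 ranged from -0.46 to 0.28, cars2, below background on both Bmp2b arrays, from -0.30 to 0.24 and yars1 from -0.29 to 0.40. Apart from these settings the cause was not tested. With 2 arrays a group, and Bmp2b arrays closer to background, small changes of dim mitochondrial genes could not be measured.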

Other observations

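Other parts of the translation machinery were described by the same counts in Bmp2b against WT hearts. Of 71 cytosolic ribosomal protein genes measured, 5 rose and 1 fell, with a median log2 fold change of 0.08; rps10, rpl30, rpl14 and rpl28 rose by 0.93, 0.87, 0.93 and 0.69, while another rpl30 probe was at -0.23. Of 68 mitochondrial ribosomal protein genes, 4 rose and 5 fell, with a median of -0.02; mrps2 fell by 1.09, while mrpl23, mrpl2 and mrps25 rose by 0.84, 0.83 and 0.91, while another mrpl23 probe was at -0.42. Of 40 cytosolic translation factor genes, 2 rose and 4 fell, with a median of 0.01. Among them eif4a1a, for an RNA helicase of initiation, eif3c and etf1b, for the factor that reads stop codons, fell by 1.70, 0.92 and 0.84, and eef2l2 rose by 1.93; its other probes, at -0.11 and -0.17, did not pass. Of 18 mitochondrial translation factor genes, 2 rose and 1 fell, with a median of -0.01; mrrf, for ribosome recycling, and mto1, which modifies tRNA, rose by 1.05 and 0.92, and gfm1, for elongation, fell by 0.70, while another mto1 probe was at -0.06. Over all genes tested 9.00% rose and 8.22% fell (limma, Benjamini-Hochberg). With WT as 1 sample 0 genes of these 4 lists passed (limma, with and without the trend and robust prior), and with 75th percentile scaling 1 cytosolic factor was higher and 1 lower, with 0 calls in the other lists. Leaving out an array moved these counts: 0 genes of the 4 lists passed without WT array 1 or without WT array 2. Without Bmp2b array 1 the medians were 0.11 and 0.02 for cytosolic and mitochondrial ribosomal proteins, and 0.05 and 0.04 for cytosolic and mitochondrial factors. In the same order they were 0.14, -0.05, -0.04 and 0.02 without Bmp2b array 2.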
